A study of Mus musculus with 5 samples.

Results

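Sites of c-Jun and sites of p300 were compared in MS5 cells, an established line of mouse bone marrow stroma, at passage 11, after 5 h in TGF-β1 at 10 ng/mL and without pioglitazone. Each antibody was represented by 1 ChIP-seq library and 1 deposited peak list, so the comparison is between 2 libraries of the same treatment and has no replicate check. The series holds 5 samples: these libraries, the same antibodies in cells that also received pioglitazone at 20 ng/mL, and a pooled input. All ChIP groups share the TGF-β1 treatment, and no group without TGF-β1 was analysed here. The members are all 48510 peaks of the lists without pioglitazone, of 83829 in the 4 lists: 17044 c-Jun peaks, each 249 bp wide, and 31466 p300 peaks, each 247 bp wide. A c-Jun peak and a p300 peak that overlapped by at least 1 bp were called co-bound, and a peak with no such overlap is called alone. Peak lists hold no reads, so the sequencing depth is unknown and the antibody labels could not be checked against the data.

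c-Jun is a subunit of AP-1, a transcription factor that binds DNA as a dimer of Jun with Fos, ATF or other Jun proteins and that acts in early responses to growth factors, cytokines and stress. In fibroblasts and stromal cells AP-1 works together with SMAD proteins at many genes that respond to TGF-β. p300 is a histone acetyltransferase that does not read a DNA sequence by itself. It is brought to enhancers and promoters by transcription factors, AP-1 and SMADs among them, and acetylates histones there.

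Most listed c-Jun sites carried p300, and most sites of the full p300 list did not carry c-Jun. Of the c-Jun peaks, 11828 were co-bound, a share of 69.4% (exact 95% interval 68.7 to 70.1). The same 11828 overlaps made up 37.6% (37.1 to 38.1) of the p300 peaks. The p300 list is longer, and with it shortened from its end to 17044 rows both shares were 53.0%, so that most p300 sites then carried c-Jun. The remaining members were 5216 c-Jun peaks alone and 19638 p300 peaks alone. When every co-bound pair was counted once, there were 36682 sites, of which 32.2% were co-bound, 14.2% had c-Jun alone and 53.5% had p300 alone. Intervals here and below cover counting error only.

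Pairing was one to one. No peak of either list overlapped more than 1 peak of the other, and in all 11828 pairs each peak was the other's nearest. Peaks of the same list were never closer than 363 bp for c-Jun and 358 bp for p300, centre to centre.

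Within pairs the centres lay close together. The median distance between the c-Jun and p300 centres was 40 bp (quartiles 18 and 74), and the median overlap was 208 bp. Centres were within 10 bp of each other in 14.8% of pairs, within 50 bp in 59.7% and within 100 bp in 85.3%. At the edge of the rule, 122 pairs overlapped by only 1 to 25 bp, and 83 c-Jun peaks alone missed a p300 peak by less than 25 bp. The number of c-Jun peaks fell off steeply with distance, from 4753 with a p300 centre less than 31 bp away to 151 between 217 and 248 bp, and 107 in the first 31 bp beyond the limit. Few sites therefore lay near the limit.

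**Figure D1:**
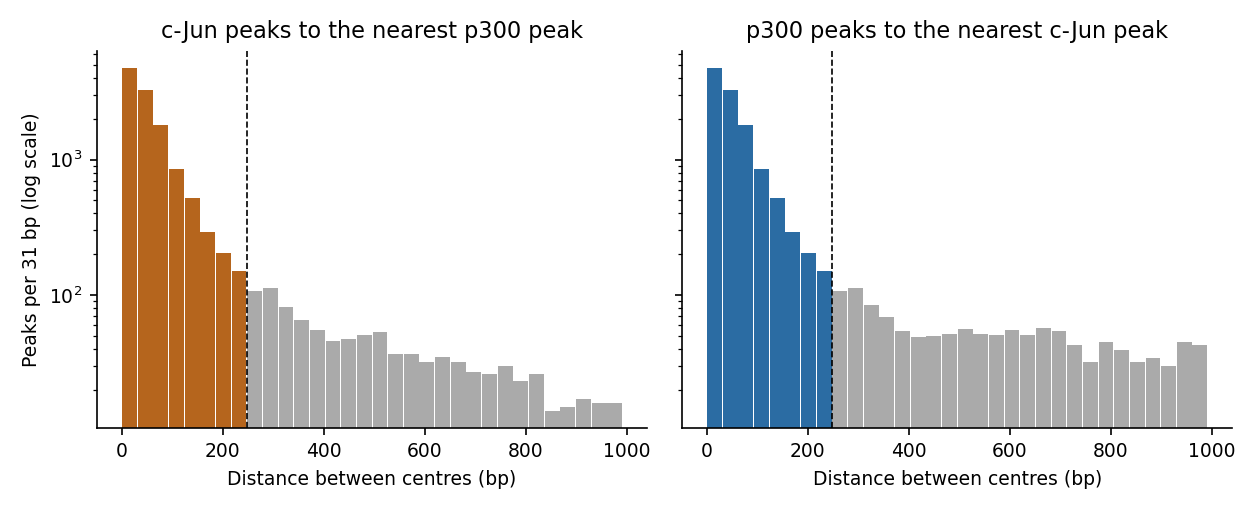
Distance from each c-Jun peak to the nearest p300 peak (left) and from each p300 peak to the nearest c-Jun peak (right), centre to centre, in bins of 31 bp on a log count axis. Coloured bars are co-bound peaks, grey bars are alone, and the dashed line is the 1 bp overlap limit; counts drop from 4753 in the first bin to 151 in the last coloured one.

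The lists give every peak the same score of 1, so the order of the rows was the only ordering of peaks at hand. What the rows were sorted by is not stated. Within chromosomes the row order followed the number in each peak's name, with a rank correlation across peaks of at least 0.853 in the c-Jun list and 0.942 in the p300 list on each of 20 chromosomes.

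Co-bound p300 sites stood high in the p300 list. In its first 10% of rows 81.4% (80.0 to 82.8) of 3147 peaks were co-bound with c-Jun, and the share was lower in every following 10% step, down to 11.6% (10.5 to 12.8) in the last. The difference between the first and last steps was 69.8 percentage points (Newcombe 95% interval 68.0 to 71.5). The median co-bound p300 peak stood 28.2% of the way down the list and the median p300 peak alone 62.0%. p300 sites without c-Jun thus formed 2780 of the last 3146 rows but 585 of the first 3147.

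The c-Jun list was different at its start. The share co-bound with p300 was 85.1% (83.3 to 86.8) in the first 10% of rows, higher in the second step, with 1533 of 1704 peaks (interval 88.4 to 91.4%), and then lower in each step to 48.5% (46.1 to 50.9) in the last. The first 10% exceeded the last by 36.6 points (33.6 to 39.4). This difference was 18.8 points with the first 50% of rows of both lists and 59.6 points with the p300 list shortened to the c-Jun length. The p300 list, once shortened, gave 52.8 points. Steps were counted anew in a shortened list, so its last 10% lay near the middle of the full list. Which list had the larger difference thus depended on list length and on the rows compared. Inside the first 10%, the share was lowest in the very first rows. Of the first 1%, 170 c-Jun peaks, 84 were co-bound, 49.4% (41.7 to 57.2). The share was 72.5% (65.2 to 79.1) between 1% and 2%, 90.2% (87.3 to 92.7) between 2% and 5%, and 91.7% (89.6 to 93.4) between 5% and 10%. The share in the first 1% minus that between 5% and 10% was -42.3 points (interval -49.9 to -34.5). These finer bins were chosen after the lists had been seen. In the p300 list the first 1% had the opposite difference, with 281 of 315 peaks co-bound, 89.2% (85.2 to 92.4), against 77.1% (75.0 to 79.2) between 5% and 10%.

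**Figure D2:**
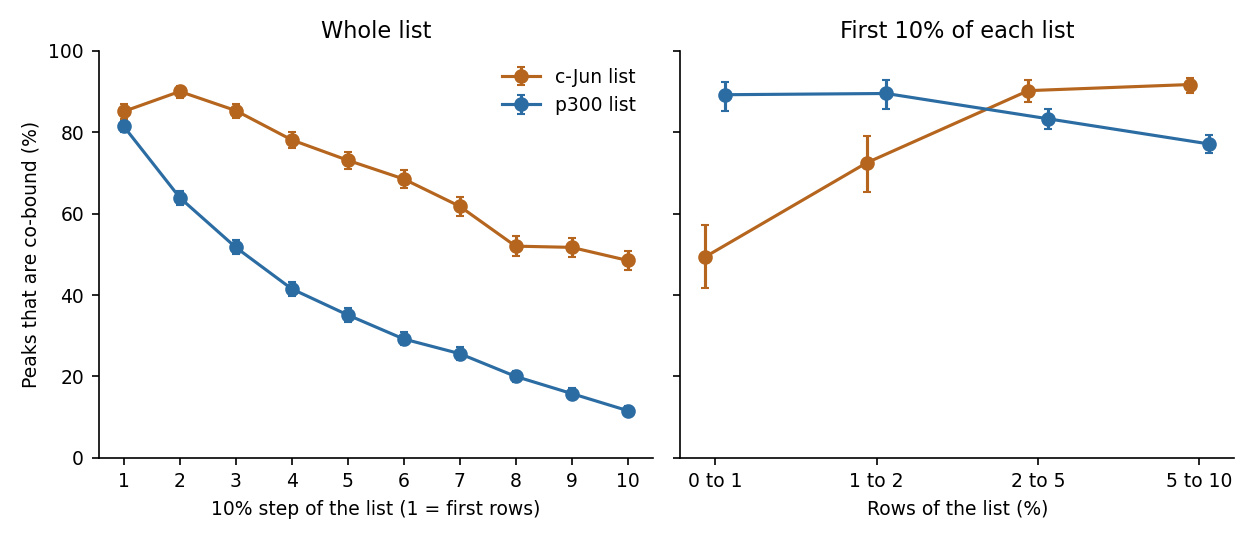
Share of peaks that were co-bound, in percent, by position in the c-Jun list (brown) and the p300 list (blue), over 10% steps (left) and within the first 10% (right); bars are exact 95% intervals for counting error. The p300 share runs from 81.4% to 11.6%, while the c-Jun share is 49.4% in the first 1% of rows and 91.7% between 5% and 10%.

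The leading c-Jun sites also differed from the rows just after them in the p300 peaks they did overlap. Of the 84 co-bound pairs in the first 1% of c-Jun rows, 1 had its p300 peak in the first 10% of the p300 list, which is 1.19% (0.0301 to 6.46). Their p300 peaks stood at a median row of 16491 of 31466 (quartiles 11878 and 20896). Among the 124 pairs between 1% and 2% of the c-Jun list, 96 had their p300 peak in the first 10%, 77.4% (69.0 to 84.4), at a median p300 row of 628. Between 2% and 5% the share was 77.7% (73.6 to 81.4), and between 5% and 10% it was 61.3% (57.8 to 64.8). The leading c-Jun sites, when p300 was listed there at all, thus carried p300 peaks from the middle of the p300 list.

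This change took place over a short stretch of rows. Of c-Jun rows up to 150, 75 were co-bound and 75 were alone, and 1 of the 75 p300 partners was in the first 10% of its list. Of rows 151 to 200, 22 were co-bound, with 7 partners in the first 10%. Of the 200 rows after these, 160 were co-bound and 131 of their partners were in the first 10%. The median p300 row of the partners went from 15168 in c-Jun rows 151 to 200 to 619 in the next 50. Rows before about 200 and rows after it therefore differed both in how often p300 was listed and in where that p300 peak stood. In the p300 list no such step was seen: 133 of the first 150 p300 rows were co-bound, and so were 181 of the 200 rows that end at row 400. Among the 281 co-bound peaks in the first 1% of p300 rows, the c-Jun partner nearest the top of its own list stood at row 137.

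**Figure D3:**
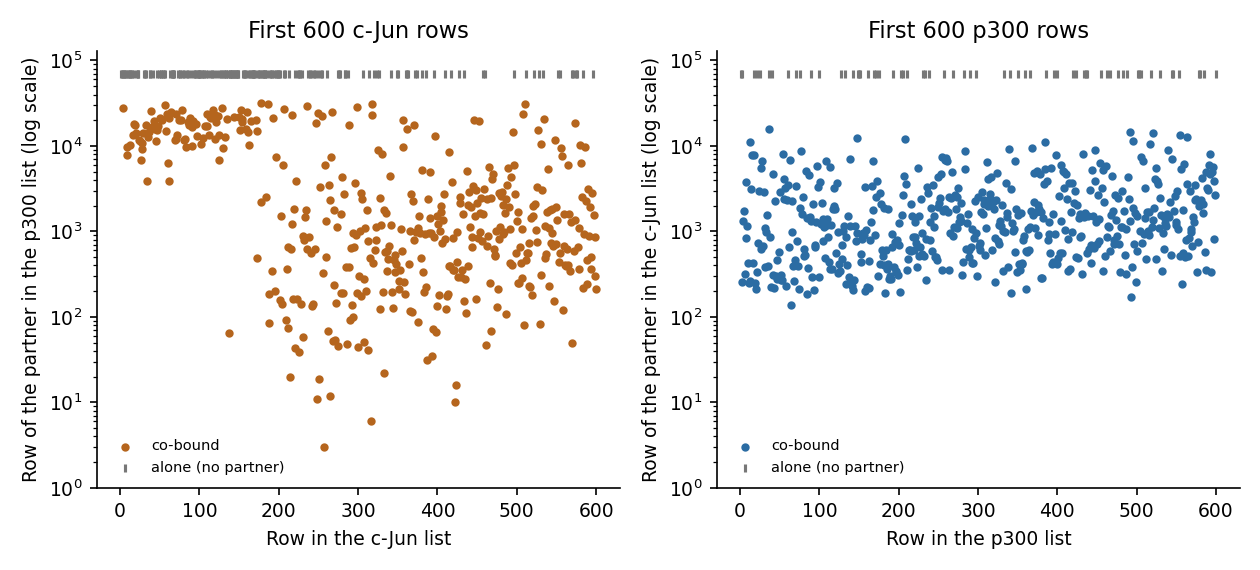
Row of the partner peak in the other list (log axis) for the first 600 c-Jun rows (left) and the first 600 p300 rows (right); each point is a co-bound pair, and grey ticks along the top mark peaks alone, which have no partner row. On the left the partners of c-Jun rows 1 to 150 have a median p300 row of 16490 and those of the 200 rows after row 200 a median of 618.

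The leading c-Jun sites were also more isolated from other c-Jun peaks. Of the 170 in the first 1%, 19 had another c-Jun peak within 10 kb, 11.2% (6.86 to 16.9), whereas 37.2% (34.0 to 40.6) of the 852 between 5% and 10% had one. A p300 centre lay within 10 kb of 74.1% (66.9 to 80.5) of the first 1% and of 96.4% (94.9 to 97.5) of the rows between 5% and 10%. These shares include the overlapping p300 peaks of the pairs. They therefore follow in part from the co-bound shares of 49.4% and 91.7%. The 86 c-Jun peaks alone in the first 1% had their nearest p300 centre at a median of 11115 bp, and 44 of them, 51.2% (40.1 to 62.1), had none within 10 kb. Neither value was far from that of all 5216 c-Jun peaks alone. The median of all 5216 was 8948 bp, and 52.2% (50.8 to 53.6) of them had p300 within 10 kb rather than none. Within the 84 pairs the median centre distance was 47.5 bp, against 27 bp between 5% and 10%. The 170 peaks were spread over 20 chromosomes, with at most 16 on any of them.

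The sites below are named by position in mm9, counted from 1, because no mm9 gene annotation or sequence was used here. The c-Jun peak at row 1, chr8:74134832-74135080, was alone, and the nearest p300 centre was 19000 bp away. At row 2, chr17:34052890-34053138 was alone with p300 at 6620 bp. At row 3, chr2:170336638-170336886 was alone with p300 at 13968 bp. The next c-Jun peaks alone were chr7:16705246-16705494 at row 5, with p300 at 21368 bp, and chr10:36694075-36694323 at row 6, with p300 at 136276 bp. None of these 5 had another c-Jun peak within 10 kb, and 4 of them had no p300 peak within 10 kb either.

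The first co-bound site in the c-Jun list was chr9:106183465-106183713 at row 4. Its p300 peak, centred 8 bp away, stood at row 28141 of 31466. At chr10:80755812-80756060, c-Jun row 8, the p300 peak was 3 bp away and at row 9648. At chr15:101114461-101114709, c-Jun row 9, the overlap was 24 bp and the p300 row 7864. The last 2 of the first 5, chr13:54795245-54795493 (c-Jun row 13) and chr17:85189910-85190158 (c-Jun row 16), had p300 rows 10352 and 13349. All 5 combined a c-Jun peak among the first 16 rows with a p300 peak outside the first 10% of its list.

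From the p300 side the first 5 co-bound sites stood high in both lists. Among all 43 co-bound peaks in the first 50 p300 rows, 29 had their c-Jun peak in the first 10% of its list. At chr15:101198977-101199223, p300 row 3, the c-Jun peak was centred 5 bp away and stood at row 257 of 17044. At chr16:25220706-25220952, p300 row 4, c-Jun was 12 bp away and at row 1310. At chr6:100009927-100010173, p300 row 5, c-Jun was 25 bp away and at row 1757. The next were chr17:14953084-14953330 and chr12:16797335-16797581, p300 rows 6 and 7, with c-Jun rows 316 and 849. Of these 5 c-Jun peaks, 4 stood within the leading 10% of c-Jun rows, and the peak at row 1757 was just past them.

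The first rows of the p300 list nevertheless held sites alone. Row 1, chr6:113256951-113257197, had its nearest c-Jun centre 69374 bp away, and row 2, chr7:134920606-134920852, had it 38601 bp away. The other 3 of the first 5 p300 sites alone came at rows 18, 21 and 25. They were chr7:20147540-20147786 with c-Jun 10853 bp away, chr2:90894207-90894453 with c-Jun 16159 bp away, and chr10:88193857-88194103 with c-Jun 2818 bp away. Of the first 100 p300 rows 88 were co-bound, and of the first 100 c-Jun rows 53 were.

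Across all pairs the positions in the lists went together. Spearman's rho between the c-Jun row and the p300 row was 0.582 across the 11828 pairs, and 0.600 across the 11744 pairs outside the first 1% of c-Jun rows. Peaks are not independent replicates, and both libraries come from the same cell line and treatment. Of the pairs, 20.8% were in the same 10% step of both lists, and 48.3% differed by at most 1 step. The shares that unrelated positions would give are not given here. Of the co-bound c-Jun peaks in the first c-Jun step 64.4% (61.9 to 66.9) had a p300 peak in the first p300 step, and of those in the last c-Jun step 1.57% (0.840 to 2.67) did. Among all pairs 21.7% had their p300 peak in the first p300 step. Seen from p300, 36.5% (34.6 to 38.4) of the co-bound peaks in its first step had a c-Jun peak in the first c-Jun step. Among all pairs 12.3% did.

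**Figure D4:**
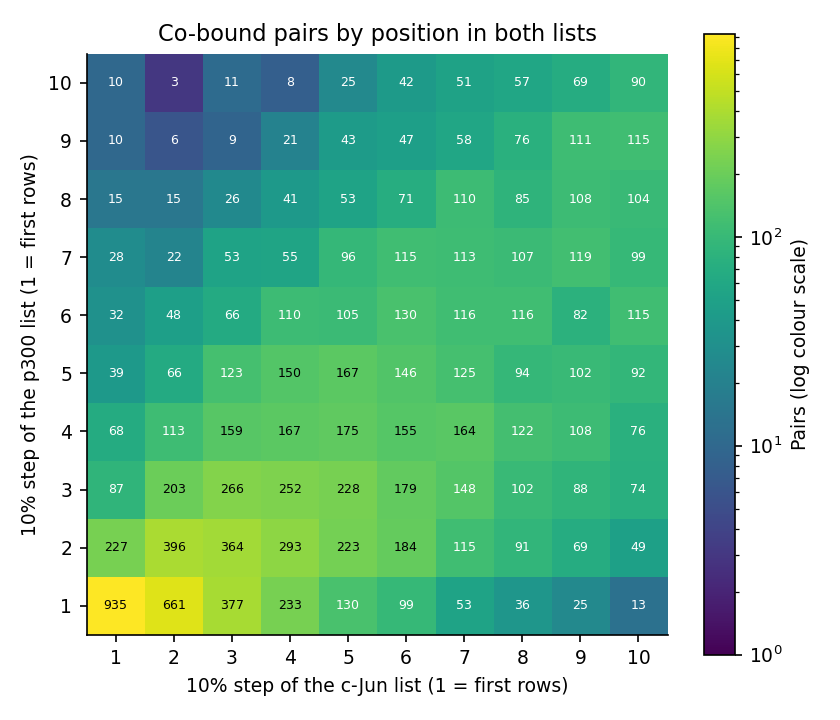
Number of co-bound pairs in each combination of a 10% step of the c-Jun list (x axis) and of the p300 list (y axis), printed in the cells and shown on a log colour scale. The largest cell is the first step of both lists with 935 pairs; the corners with opposite positions hold 10 and 13.

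Pairs at opposite ends of the lists were few. In 10 pairs the c-Jun peak was in the first step and the p300 peak in the last, and in 13 pairs the reverse held. These sites were picked for their positions, so their rows are a description. The first of the 10 was chr4:83132364-83132612, at c-Jun row 57 and p300 row 29802, with centres 31 bp apart. The first of the 13 was chr14:27489143-27489391, at c-Jun row 15620 and p300 row 36, with centres 15 bp apart. Another was chr3:41302849-41303097, at c-Jun row 16073 and p300 row 848, with centres 2 bp apart. The centres of these named pairs were as close as in most other pairs, but that did not hold for all pairs at opposite ends. Centre distances ran from 0 to 66 bp among the 10 and from 2 to 164 bp among the 13. Several of the 13 lay beyond 74 bp, the upper quartile of all pairs.

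Centre distances within pairs also varied along the lists. The median was 28 bp in the first step of the c-Jun list and 54 bp in the last. In the p300 list it was 30.5 bp in the first step, 56 bp in the seventh and 49.5 bp in the last. The first 1% of c-Jun rows, with the median of 47.5 bp given above, did not follow this order.

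Peaks alone lay at different distances from the other factor. For c-Jun peaks alone the median distance to the nearest p300 centre was 8948 bp (quartiles 1769 and 26926), and for p300 peaks alone the median distance to the nearest c-Jun centre was 20898 bp (7506 and 52063). The p300 list has more peaks, which by itself places a p300 peak nearer to a given point of the genome. Within 1 kb of the other factor lay 19.3% (18.2 to 20.4) of c-Jun peaks alone and 6.66% (6.32 to 7.02) of p300 peaks alone. With the p300 list shortened to the c-Jun length the order turned, to 7.14% and 9.14%. More than 100 kb from it lay 4.60% (4.05 to 5.21) and 12.0% (11.5 to 12.4).

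Some of the peaks alone were neighbours of the other factor. Of the 1005 c-Jun peaks alone with a p300 centre within 1 kb, the nearest p300 peak was itself co-bound with another c-Jun peak in 142, 14.1% (12.0 to 16.4). Of the 1308 p300 peaks alone with a c-Jun centre within 1 kb, the nearest c-Jun peak was co-bound in 437, 33.4% (30.9 to 36.0). In the remaining cases the nearest peak of the other factor was alone too, so the factors were listed side by side without overlap.

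The distance of a peak alone to the other factor also went with its position. For p300 peaks alone the median distance to c-Jun was 5359 bp in the first 10% of the list, higher in each following step, and 34705 bp in the last. The share with c-Jun within 1 kb went from 17.6% in the first step to 2.66% in the last. For c-Jun peaks alone the median distance to p300 was 7550 bp in the first step, 2859 bp in the second and 13070 bp in the last. The shares with p300 within 1 kb in these steps were 23.2%, 37.4% and 13.1%. c-Jun peaks alone in the second step were thus nearer to p300 than those in the first.

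Sites were also grouped into domains by joining neighbouring centres of both lists that were at most 10 kb apart. Of 24944 domains, 11479 held both factors (46.0%), 11100 held p300 only (44.5%) and 2365 held c-Jun only (9.48%). A co-bound pair was present in 9992 of the domains with both factors, and in 1487 the factors shared a domain without overlapping. At this scale 85.6% (85.0 to 86.1) of c-Jun peaks had p300 in the domain, and 58.6% (58.0 to 59.1) of p300 peaks had c-Jun. These shares are larger than the overlap shares by construction. With the p300 list shortened to the c-Jun length, domains with c-Jun only numbered 5464 and those with p300 only 3973, so the order of these kinds depended on list length.

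With this joining distance, most peaks alone were not in a domain with a pair. Of c-Jun peaks alone, 21.9% (20.8 to 23.0) were in a domain with a co-bound pair, 31.0% (29.7 to 32.2) in a domain with p300 but no pair, and 47.1% (45.8 to 48.5) in a domain without p300. Of p300 peaks alone, 23.5% (22.9 to 24.1) were in a domain with a pair, 10.1% (9.71 to 10.6) in a domain with c-Jun but no pair, and 66.4% (65.7 to 67.0) in a domain without c-Jun. The first of these shares depended on the joining distance. It was 10.6% for c-Jun and 10.2% for p300 with 5 kb, and 46.5% and 50.9% with 25 kb.

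Most domains with pairs held 1 pair, which was the case in 8512, and 58 held 4 or more. The largest number was 6. The domain chr2:125073222-125130929 held 6 pairs, 1 c-Jun peak alone and 4 p300 peaks alone. The domain chr5:31904805-31953189 held 6 pairs and 3 p300 peaks alone, and chr6:112195690-112232196 held 6 pairs and 1 peak alone of each factor. Among the domains with 5 pairs were chr1:152307829-152345344, with 2 p300 peaks alone, and chr2:125740035-125774290, with 1. In the 3 domains with 6 pairs p300 peaks were as many as c-Jun peaks or more, from 7 to 10.

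Dense p300 domains without c-Jun also occurred. The domain chr2:126206140-126251340 held 7 p300 peaks over 45.2 kb and no c-Jun peak, and its first p300 peak stood at row 3703. The domains chr6:21962173-21987739 and chr6:99417154-99435448 held 6 p300 peaks each. Among the domains with 5 were chr2:36078016-36103738 and chr17:84285156-84301657, named by position among ties. Domains with c-Jun only were small, with at most 3 peaks, and 2277 of the 2365 consisted of a single site. Those with 3 c-Jun peaks numbered 6, among them chr2:73698341-73710072, chr4:134115092-134125902, chr8:107738960-107749205 and chr11:107330274-107341040. c-Jun peaks without p300 in the domain were thus nearly all solitary. Single sites were common in general, with 17264 of all 24944 domains. Likewise 11885 of all 17044 c-Jun peaks had no other c-Jun peak within 10 kb. A c-Jun-only domain also has, by definition, no p300 centre to join it to others. Of the 11100 p300-only domains 9501 were a single site.

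Crowding within a list showed a small difference in pairing. Of p300 peaks with another p300 peak within 10 kb, 39.5% were co-bound, and of those without 35.9% were, a difference of 3.53 points (2.46 to 4.60). Crowded p300 peaks stood higher in the list: the median position was 58.6% with no neighbour and 29.2% with 3 or more. Within 10% steps of the list the difference turned to -5.55 points (Mantel-Haenszel 95% interval -6.53 to -4.57). Among c-Jun peaks those with a close neighbour exceeded the others by 3.91 points (2.42 to 5.39), and by 1.22 points (-0.195 to 2.63) once compared within steps. At like positions in the list, p300 peaks with a close p300 neighbour were co-bound less often than isolated ones.

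By chromosome, chromosome Y with 1 c-Jun and 2 p300 peaks was left aside, and 20 chromosomes were each compared with all others. The share of c-Jun peaks co-bound with p300 was highest on chromosome 13, at 75.1% (72.1 to 77.9) of 890, and lowest on X, at 63.2% (58.1 to 68.0) of 383. Of p300 peaks, 40.3% (38.0 to 42.7) were co-bound on chromosome 13 and 32.1% (28.8 to 35.6) on X. Peaks on X stood low in the lists, with a median position of 75.6% for c-Jun and 71.7% for p300. Within 10% steps the difference between X and the rest was 2.63 points (-2.23 to 7.50) for c-Jun, and for p300 it turned from -5.63 (-8.91 to -2.17) to 5.10 (1.99 to 8.21).

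Chromosome 13 stayed above the rest within the steps, with the highest difference for c-Jun, while for p300 that of X was higher. Its c-Jun peaks were co-bound more often than the rest by 5.97 points (2.94 to 8.79), and by 8.73 points (5.94 to 11.5) within steps. Its p300 peaks exceeded the rest by 2.90 points (0.499 to 5.35), and by 4.07 points within steps, with an interval above 0. Chromosome 3 also had more co-bound peaks within steps, by 4.59 points (1.81 to 7.36) among c-Jun peaks and by 3.91 points (1.83 to 5.98) among p300 peaks. Its unadjusted differences were 2.90 (-0.0745 to 5.70) and 1.84 (-0.458 to 4.18). Chromosomes 6, 10 and 19 had fewer for both factors within steps only. Unadjusted, their differences were slightly above 0 for both factors, with intervals that include 0. On chromosome 19 the difference within steps was -3.90 points (-7.60 to -0.194) among c-Jun peaks and -5.90 points (-8.66 to -3.13) among p300 peaks. Unadjusted it was 1.26 and 0.338 points. The intervals are not adjusted for the 20 chromosomes compared.

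**Figure D5:**
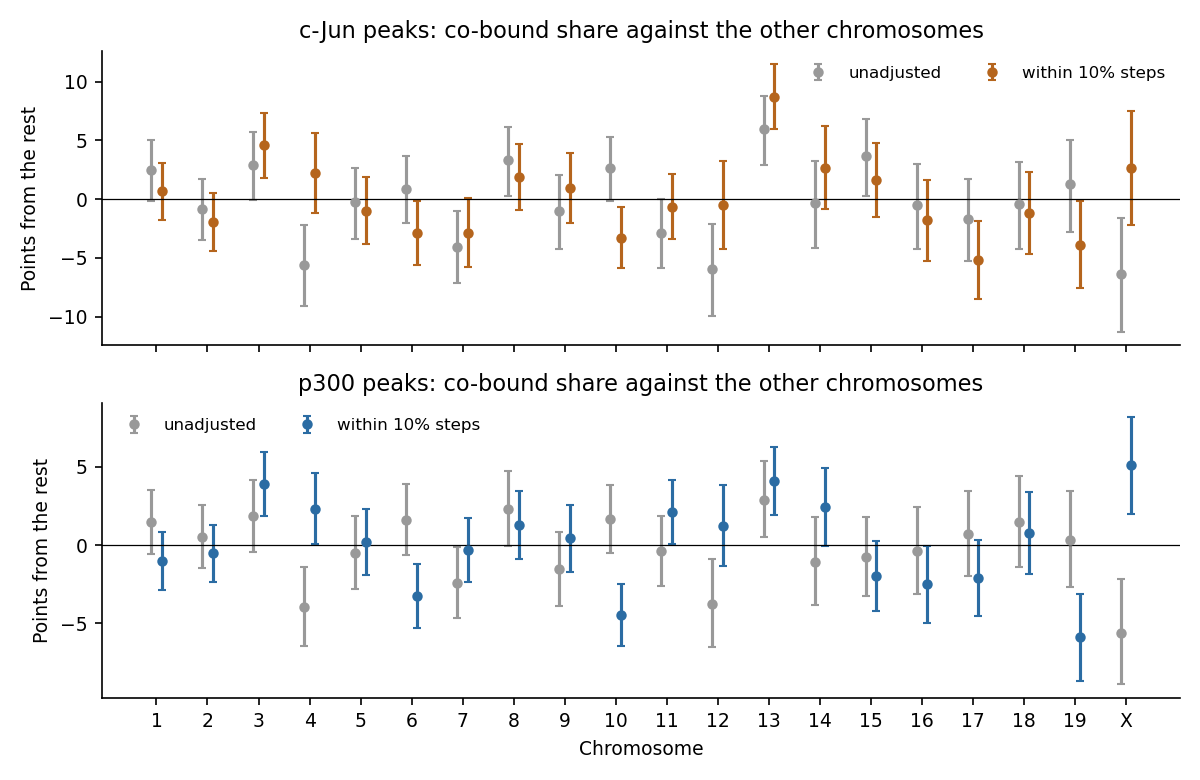
Co-bound share on each chromosome minus that on all others, in percentage points, for c-Jun peaks (top) and p300 peaks (bottom); grey points are unadjusted, coloured points compare peaks within 10% steps of the list, and bars are 95% intervals for counting error. Chromosome 13 lies above 0 in both panels, and X moves from below to above 0 once list position is taken into account, with an interval that includes 0 for c-Jun.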

How the data were processed

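ChIP-seq peaks of c-Jun and p300 were analysed as the authors deposited them, 1 list per library. Per the submitters' processing notes, Bowtie2 (2.3.4.3), SAMtools (1.9) and HOMER were run against mouse mm9. The sources used here do not give their roles, the peak-calling settings or the use of the input. The deposited score is 1 for every peak and carries no height or p-value. Depth is unknown, and a difference in depth between libraries would change the number of peaks and the overlap shares.

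Overlaps, distances, domains and list positions were computed in Python (3.11.15; numpy 2.4.6, pandas 2.3.3, scipy 1.17.1) and checked against bedtools (2.31.1), which gave equal counts in 4 of 4 comparisons. On simulated pairs planted on the 17044 c-Jun peaks, 22 peaks received the wrong class. The planted distances left out the range around the overlap limit, so the simulation does not cover peaks at that edge. Shares carry exact (Clopper-Pearson) 95% intervals, differences Newcombe's, and differences within 10% steps Mantel-Haenszel intervals with Sato's variance. No p-value is given, since each group is 1 library. Named sites are the 5 first in each list among co-bound peaks and among peaks alone, and the 5 domains with most pairs, most p300 without c-Jun and most c-Jun without p300 (1 of the last 5 is not reported here); other sites were picked after their values were seen. The members, and the lists of comparisons, were chosen with earlier results of these data known. Planned shares of peaks at promoters and with AP-1 motifs, and counts by gene list, were not run because an mm9 genome and gene annotation were not used.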

Additional observations from a re-analysis of the deposited data

How the results depend on the processing

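Among the 91 alternatives computed, those of differences, which alone could change sign, kept their sign. Differences within steps and by chromosome were not among them. With p300 shortened to the c-Jun length, the order of the factors turned for peaks alone within 1 kb of the other. The same held for domains with 1 factor only. It also held for the first 10% minus the last 10%, at 36.6 points for c-Jun and 69.8 for p300. These became 59.6 and 52.8. Positions in percent and steps were counted anew in every shortened list. Its last 10% were therefore other rows than those of the full list. Shortening p300 to the c-Jun length also took the p300 share past 50%. Joining domains at 5 kb turned the order of peaks alone in a domain with a pair. The shares went from 21.9% for c-Jun and 23.5% for p300 to 10.6% and 10.2%. Of the values, 35 stayed within the main interval, or within 1.5 times for counts of domains. Of these 35, 9 were fixed by construction, since domains do not use the overlap rule. The other 56 moved as follows. The share of co-bound c-Jun peaks was 62.6% with an overlap of 50% of both peaks, 59.2% with centres within 100 bp, 72.8% within 500 bp, 71.6% with the first 50% of rows of both lists and 53.0% with p300 shortened to the c-Jun length. For p300 these shares were 33.9%, 32.1%, 39.5%, 38.8% and 53.0%. The first 10% minus the last 10% of the c-Jun list gave 40.9 points at 50% overlap, 42.8 within 100 bp, 18.8 with the first 50% of rows, 59.6 with p300 shortened and 47.1 ordered by the number in the peak name. For the p300 list it gave 67.2 within 100 bp, 65.0 with the first 50% of rows, 52.8 shortened and 73.4 ordered by number. The difference between the first 1% and the rows from 5% to 10% of the c-Jun list was -58.4 points with the first 50% of rows and -63.7 with p300 shortened, and it stayed between -49.8 and -39.1 under the other 5 alternatives.

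The share of c-Jun peaks alone with p300 within 1 kb was 34.0% at 50% overlap, 39.4% within 100 bp, 9.30% within 500 bp, 11.7% with the first 50% of rows and 7.14% with p300 shortened. For p300 peaks alone it was 11.9%, 14.2%, 3.78%, 4.78% and 9.14%. The share of c-Jun peaks alone in a domain with a co-bound pair was 20.6%, 19.7%, 23.4%, 14.5% and 14.8% under the same 5 settings, and 10.6% and 46.5% with domains joined at 5 and 25 kb. For p300 it was 21.8%, 20.9%, 24.6%, 22.1%, 30.0%, 10.2% and 50.9%. The median centre distance of pairs, 40 bp (95% interval of the median 39 to 41), was 35 bp at 50% overlap, 33 bp within 100 bp, 42 bp within 500 bp, 33 bp with the first 50% of rows and 37 bp with p300 shortened. Domains with both factors numbered 5751 with the first 50% of rows. Those with c-Jun only numbered 5464 with p300 shortened and 1225 at 25 kb. Those with p300 only numbered 5918 with the first 50% of rows, 3973 shortened and 5723 at 25 kb. Stricter overlap turns pairs into peaks alone, and shorter lists leave fewer peaks, by construction; other causes were not tested.

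No paired analysis was possible because each antibody has 1 library and no result comes from a test across samples. No replicate was left out for the same reason. The alternatives for promoters and motifs were not run. The lists hold no counts, and the limit that depth sets on the overlap was not measured.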

Other observations

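The first 1% of the c-Jun list, whose p300 partners stood in the middle of the p300 list, was also looked up in the libraries with pioglitazone. Of these 170 c-Jun sites, 169 overlapped a c-Jun peak with pioglitazone, at a median row of 85 of 13325, and 84 overlapped a p300 peak with pioglitazone, 49.4% (41.7 to 57.2). Of the 852 c-Jun sites between 5% and 10%, 729 overlapped a c-Jun peak with pioglitazone, at a median row of 1640, and 734 overlapped a p300 peak, 86.2% (83.6 to 88.4). The leading c-Jun sites therefore had a lower share of p300 than the rows between 5% and 10% in both p300 lists. The shares of all c-Jun peaks overlapping the lists with pioglitazone are not given here. This lookup was added after the lists had been seen.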
